A study of Sus scrofa with 70 samples.

Results

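The RNase A family is a group of small secreted proteins related to pancreatic ribonuclease. Its genes were described here in the boar reproductive tract. The members were the genes named RNASE followed by 1 or 2 digits alone, which gives RNASE1, RNASE4, RNASE6, RNASE9, RNASE10, RNASE11, RNASE12 and RNASE13. Of these 8 genes, 5 carried their symbol in the deposited annotation. RNASE9 and RNASE13 were matched by the position and strand of their RefSeq coding sequence to models without a symbol (ENSSSCG00000058969 and novelGene_3328). RNASE11 matched no model and its level was not analysed here. The text therefore rests on 7 genes of the 35552 in the expression table.

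RNA-seq was performed on testis, on epididymis and on the vesicular, prostate and bulbourethral glands of boars of 2 breeds, all 12 months old. DSE is the Diannan small-ear pig, a local breed. BMI is the Banna mini-pig inbred line, which was derived from DSE by mating full sibs and parents with offspring. Each breed and gland had 3 RNA-seq libraries, 30 in all, and 1 Iso-seq library of full-length PacBio reads, 10 in all. The labels give no treatment and do not say which libraries came from one animal, so p-values measure the spread between these libraries. The region of the epididymis (caput, corpus or cauda) is not given in the sources used here. Each gland is a bulk sample, in which fewer cells of a type and less RNA per cell cannot be told apart.

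Canonical members of the family cut RNA with a catalytic site made of 2 histidines and a lysine, and the lysine sits in a short signature: cysteine, lysine, any 2 residues, asparagine, threonine, phenylalanine. RNASE1 is the pancreatic type enzyme, RNASE4 prefers uridine and RNASE6 is known from myeloid cells and from antimicrobial activity in urine. RNASE9 to RNASE13 lie in the same chromosomal cluster, have lost parts of the catalytic site and are known mainly from the male tract. RNASE10 was first isolated from boar epididymal fluid under the name Train A. The epididymis is the duct in which sperm mature, and its epithelium secretes a different set of proteins in each region, above all in the proximal part.

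The sequence that separates these groups is the signature itself. For each member the 7 codons at this site are shown 5′ to 3′ in coding direction, from the Sscrofa11.1 genome at the RefSeq coding sequence, with the codons that encode a signature residue in capitals.
RNASE1: TGCAAGccggtgAACACCTTT
RNASE4: TGCAAGcgcttcAACACTTTC
RNASE6: TGTAAGcctcaaAACACCTTT
RNASE9: TGTgttaaagaacatttcTTC
RNASE10: TGCatatcccagtacataTTC
RNASE11: TGCatgttgagcAACaatTTC
RNASE12: TGCAAAaaggagcatatcTTC
RNASE13: TGCccaaagatccattatgta

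All 5 fixed residues were encoded in RNASE1, RNASE4 and RNASE6. RNASE11 and RNASE12 encoded 3 of the 5, RNASE9 and RNASE10 encoded 2, and RNASE13 encoded only the cysteine. The site lies at chr7:78214202-78214222 (plus strand) in RNASE1, chr7:78244695-78244715 (minus strand) in RNASE4 and chr7:78220530-78220550 (minus strand) in RNASE6. It lies at chr7:78366400-78366420 (plus strand) in RNASE9, chr7:78391792-78391812 (minus strand) in RNASE10, chr7:78345137-78345157 (plus strand) in RNASE11, chr7:78340445-78340465 (plus strand) in RNASE12 and chr7:78103881-78103901 (plus strand) in RNASE13. Every site is in coding sequence.

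The RefSeq coding sequences ran from 146 codons in RNASE4 to 221 codons in RNASE9 and held 8 to 10 cysteine codons. Among the 3 members with the signature, pairs of proteins were 42.3 to 52.4% identical after alignment. Among the 5 without it, the range was 20.6 to 30.4%, about as low as the 20.0 to 28.9% between the 2 groups.

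The models of the 7 members span 296.1 kb of chromosome 7 in Sscrofa11.1. RNASE13 is at chr7:78098084-78105138, RNASE1 at chr7:78213005-78214821, RNASE6 at chr7:78219960-78225047, RNASE4 at chr7:78243691-78262904, RNASE12 at chr7:78332467-78344180, RNASE9 at chr7:78340966-78368435 and RNASE10 at chr7:78383114-78394137. RNASE4, RNASE6 and RNASE10 are on the minus strand and the others on the plus strand. The RNASE12 and RNASE9 models overlap on one strand, and so do RNASE4 and ANG (angiogenin, a family member outside the naming rule that carries all 5 signature residues). For these pairs the split of reads between models is an estimate.

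Levels are given as TPM, the abundance of transcripts scaled for their length, which sums to the same total in every library and can be compared between genes. The table holds TPM alone, so the number of reads behind a value is unknown. Differences were computed on log2(TPM + 1), which understates the change of low genes, and a gene was called at an adjusted p below 0.05 with a log2 difference of at least 1. Genes that reached 1 TPM in 3 libraries or more were tested, 19796 in all, and the 7 members were among them. RNASE9 passed this filter through the epididymis alone, and RNASE10 through the epididymis and a single vesicular gland library, so their testing depended on the gland in which they are high.

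The epididymis and testis libraries carried their defining transcripts. Markers particular to the vesicular, prostate or bulbourethral gland were not examined. Markers of epididymal epithelium (5 of 6 in the table) summed to 1764 to 28739 TPM in the epididymis and to at most 20.5 TPM in any other library. Spermatid markers summed to 23613 to 102554 TPM in testis and to 11.8 to 962 TPM in the epididymis. The 10 highest transcripts took 47.3 to 64.7% of all TPM in the vesicular gland, 41.4 to 56.2% in the prostate gland and 26.4 to 42.5% in the bulbourethral gland, against 9.24 to 22.0% in the epididymis. A large share lowers what is left for other genes. Against the vesicular gland the median of all genes was 0.74 higher in the epididymis on the log2 scale, and 0.05 higher after scaling by size factors. Against the prostate gland these medians were 0.38 and 0.06, and against the bulbourethral gland 0.17 and 0.04. Against the mean of the other 4 glands the median of all genes was 0.25, and -0.13 after that scaling.

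A pair of libraries stood apart from their groups. BMI prostate gland replicate 2 had a median correlation of 0.958 with vesicular gland libraries and 0.934 with the other prostate gland libraries, whereas the remaining prostate gland libraries had 0.849 to 0.877 and 0.946 to 0.970. DSE testis replicate 2 had 0.907 with the other testis libraries, against 0.965 to 0.975 for the rest. DSE epididymis replicate 1 had the lowest median correlation with the other epididymis libraries, 0.884 against 0.894 to 0.936. The study's quality table also gives that library the lowest transcript integrity and the largest unmapped share of all its RNA-seq libraries. The part of RNA quality in its levels was not tested.

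Against the mean of the other 4 glands, 6 of the 7 members were called higher in the epididymis and none was called lower. Of all genes tested, 15.1% were called higher and 6.56% lower. The median log2 difference of the members was 3.0, against 0.25 over all genes. RNASE12, RNASE9 and RNASE10 had the largest differences, RNASE1 and RNASE4 followed, RNASE13 was barely past the threshold, and RNASE6 was the exception, being highest in testis. In RNASE1, RNASE9 and RNASE10, all 6 epididymis libraries lay above all 24 others, a pattern found in 3.02% of the genes tested.

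**Figure D1:**
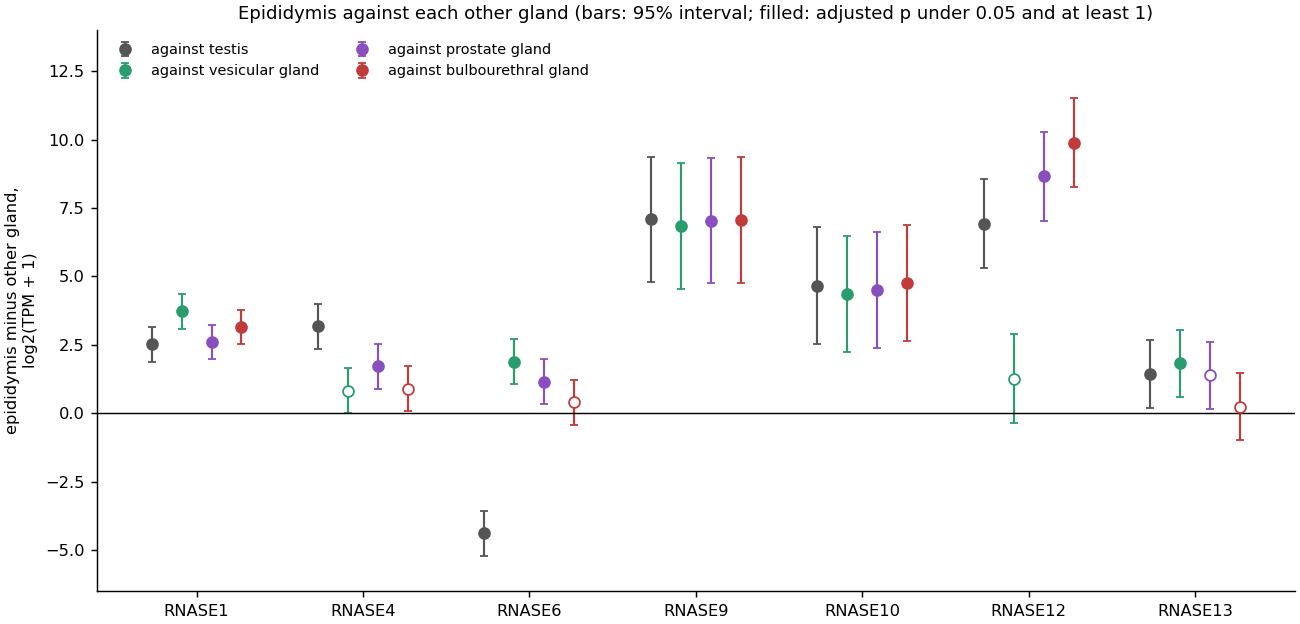
Difference on the log2(TPM + 1) scale (vertical axis) between the epididymis and each of the other 4 glands (colours) for the 7 members, with 95% intervals of the limma fit as bars and filled points where the gene was called. RNASE6 against testis lies lowest at -4.38, while RNASE12 reaches 9.89 against the bulbourethral gland and only 1.25, an open point, against the vesicular gland.

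RNASE12, a member without the catalytic signature, was the most abundant member in the median epididymis library. Its epididymis values were 871, 1145 and 2375 TPM in BMI and 246, 1007 and 1380 TPM in DSE. The vesicular gland was next, at 312 to 462 TPM with a median of 440. Testis had 1.74 to 10.2 TPM, with the lowest value in the DSE library that stood apart. In the bulbourethral gland RNASE12 was listed at 0 in 5 libraries and reached 0.130 TPM in the other. In the prostate gland it was listed at 0 in 5 libraries and at 179 TPM in BMI replicate 2, the library that resembled the vesicular gland.

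The epididymis and vesicular gland values of RNASE12 overlapped through a single library, since DSE epididymis replicate 1 (246 TPM) lay below all 6 vesicular gland libraries and the other 5 lay above them. By median the order was epididymis, vesicular gland, testis, and then the prostate and bulbourethral glands, which overlapped at 0. The 179 TPM of BMI prostate gland replicate 2 lay above every testis library. Against the mean of the other glands the log2 difference was 6.68 ± 0.62 (SE, adjusted p = 4.01e-09). Against the vesicular gland it was 1.25 (adjusted p = 0.172) and was not called. Without BMI prostate gland replicate 2 the same difference of 1.25 was called (adjusted p = 0.0025), and with size factors it was 0.16 (adjusted p = 0.944). Without DSE epididymis replicate 1 it was 1.63 (adjusted p = 0.0825). Against the prostate gland the difference was 8.67, and 9.92 without BMI prostate gland replicate 2.

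RNASE9, also without the signature, was found in the epididymis and almost nowhere else. Its 6 epididymis values were 4.29, 6169 and 18.8 TPM in BMI and 104, 21.0 and 4231 TPM in DSE. It was listed at 0 in all 6 testis libraries and reached at most 0.323 TPM, in the vesicular gland, outside the epididymis. Within the epididymis the highest library exceeded the lowest 1166-fold on TPM + 1, and each breed had 1 library far above the others.

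RNASE10, the boar epididymal protein named above, had a similar spread. Its epididymis values were 3.88, 10294 and 12.0 TPM in BMI and 20.1, 3.09 and 15.4 TPM in DSE. The maximum in any other gland was 1.25 TPM, in a BMI vesicular gland library. BMI epididymis replicate 2 alone was high, and the ratio of the highest to the lowest library was 2515 on TPM + 1. Only 0.566% of the genes tested had a range of over 100-fold among the 6 epididymis libraries.

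The log2 difference between epididymis and the mean of the other glands was 7.0 ± 0.88 (SE, adjusted p = 4.07e-07) for RNASE9 and 4.57 ± 0.82 (SE, adjusted p = 4.65e-05) for RNASE10. The fit shares its estimate of the spread over all 10 groups, and both genes varied far more in the epididymis than elsewhere. These SE and p-values therefore understate the spread in the epididymis. In the fit of the epididymis alone, the SE of the breed difference was 3.32 for RNASE9 and 3.06 for RNASE10. The differences also rested in part on single libraries. Without BMI epididymis replicate 2, the difference fell to 5.47 for RNASE9 and to 2.85 for RNASE10, and both were still called (adjusted p = 6.91e-08 and 5.88e-09). Without DSE epididymis replicate 3 the difference for RNASE9 was 5.93. Over all 30 libraries left out in turn, the difference ran from 5.47 to 8.01 for RNASE9 and from 2.85 to 5.61 for RNASE10. Both genes were also called against each of the other 4 glands.

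**Figure D2:**
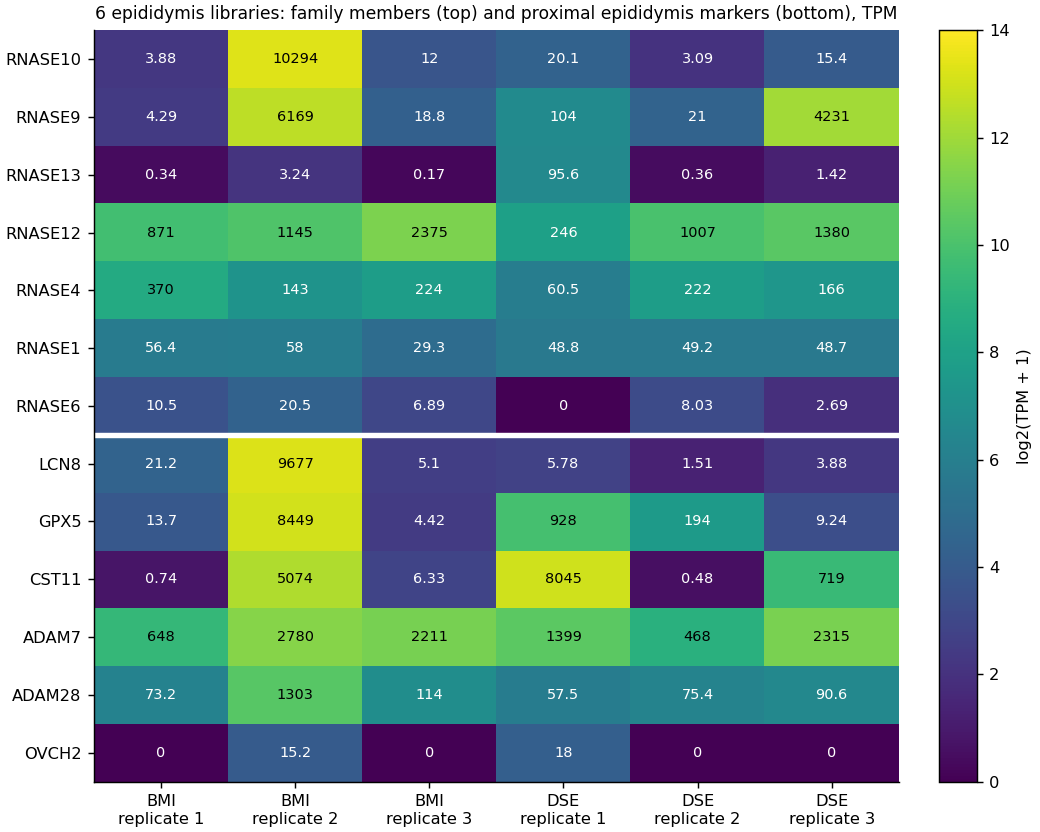
Level of the 7 members (upper rows) and of 6 markers of the proximal epididymis (lower rows) in each of the 6 epididymis libraries (columns), with TPM printed in each cell and colour on the log2(TPM + 1) scale. RNASE9, RNASE10, LCN8 and GPX5 are highest in BMI replicate 2, RNASE13 and CST11 in DSE replicate 1, and RNASE1 varies least, from 29.3 to 58.0 TPM.

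Markers of the proximal epididymis also differed widely among the 6 libraries. Their sum had the same order over the 6 as RNASE10, and another order than RNASE9 and RNASE13. Of 7 such markers 6 were in the table, and their sum was 757, 27298 and 2340 TPM in the BMI epididymis libraries and 10453, 739 and 3138 TPM in the DSE libraries. LCN8, a lipocalin of the initial epididymis, was at 9677 TPM in BMI replicate 2 and at 1.51 to 21.2 TPM in the other 5. GPX5, the secreted glutathione peroxidase of the caput, was at 8449 TPM in BMI replicate 2 at 928 TPM in DSE replicate 1 and at 4.42 to 194 TPM in the other 4. CST11, a cystatin, was at 8045 TPM in DSE replicate 1, 5074 TPM in BMI replicate 2 and 719 TPM in DSE replicate 3. That last library, with 4231 TPM of RNASE9, had only 9.24 TPM of GPX5, 3.88 TPM of LCN8, and OVCH2 was listed at 0. DSE replicate 1, with the next highest marker sum after BMI replicate 2, had the next highest RNASE10 as well (20.1 TPM) and 104 TPM of RNASE9. OVCH2 was listed at 0 in 4 of the 6 libraries and was found in BMI replicate 2 (15.2 TPM) and DSE replicate 1 (18 TPM). ADAM7 (468 to 2780 TPM) and ADAM28 (57.5 to 1303 TPM) were present in all 6.

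Markers of other cell types differed as well. Smooth muscle markers (5 of 5 in the table) summed to 1395 TPM in BMI epididymis replicate 2 and 2652 TPM in DSE replicate 1, against 3889 to 19849 TPM in the other 4. Spermatid markers (6 of 6) summed to 962 and 230 TPM in these 2 libraries and to 11.8 to 118 TPM in the others. Endothelial markers (6 of 6) summed to 56.1 to 618 TPM, basal cell markers (2 of 3) to 22.2 to 118 TPM and Leydig cell markers (4 of 4) to 0.208 to 3.80 TPM in the epididymis. The part of any of these in the levels of RNASE9, RNASE10 and RNASE13 was not tested.

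RNASE13 encodes only the cysteine of the signature. Its epididymis values were 0.342, 3.24 and 0.167 TPM in BMI and 95.6, 0.364 and 1.42 TPM in DSE. The bulbourethral gland was more even, at 1.43 to 3.49 TPM, and its median of 1.85 TPM was above the epididymis median of 0.892 TPM. Testis, prostate gland and vesicular gland had medians of 0.362, 0.254 and 0 TPM. RNASE13 was thus high in 1 epididymis library, the one noted above for its RNA quality, and low in the other 5. The call against the mean of the other glands (1.21 ± 0.47 SE, adjusted p = 0.0306) ended without DSE epididymis replicate 1, where the difference was 0.26 (adjusted p = 0.274), and without BMI epididymis replicate 2, where it was 0.92 (adjusted p = 0.126).

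RNASE1, the pancreatic type enzyme, was the most even member in the epididymis, at 56.4, 58.0 and 29.3 TPM in BMI and 48.8, 49.2 and 48.7 TPM in DSE. All other libraries had 1.34 to 15.7 TPM, the highest being DSE testis replicate 2, which stood apart. The log2 difference against the mean of the other glands was 3.0 ± 0.24 (SE, adjusted p = 3.18e-10). On the TPM + 1 scale RNASE1 was 5.73-fold higher than in testis (6.94-fold without DSE testis replicate 2), 6.08-fold higher than in the prostate gland, 8.94-fold higher than in the bulbourethral gland and 13.2-fold higher than in the vesicular gland, and each difference was called. Below the epididymis, the ranges of the other 4 glands overlapped with their neighbours in the order of medians, which was prostate gland, testis, bulbourethral gland and vesicular gland. By the mean of log2 values testis stood above the prostate gland (3.08 against 2.99).

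RNASE4 was present in every gland. Its epididymis values were 370, 143 and 224 TPM in BMI and 60.5, 222 and 166 TPM in DSE. The vesicular gland had 36.6 to 232 TPM, the bulbourethral gland 50.0 to 139 TPM, the prostate gland 16.6 to 112 TPM and testis 10.1 to 28.4 TPM. Only testis lay apart from the epididymis, and the ranges of the epididymis and the 3 accessory glands overlapped. The log2 difference against the mean of the other glands was 1.65 ± 0.32 (SE, adjusted p = 9.68e-05). Against the vesicular gland it was 0.82 (adjusted p = 0.0753) and against the bulbourethral gland 0.90 (adjusted p = 0.0808), and neither was called. Without DSE epididymis replicate 1, which had the 60.5 TPM, both were called (1.10 and 1.17), and without DSE bulbourethral gland replicate 3 the latter was called at 1.14.

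RNASE6 ran the other way. In testis it had 160, 130 and 145 TPM in BMI and 178, 55.2 and 173 TPM in DSE, the low value being that of the library that stood apart. The epididymis had 10.5, 20.5 and 6.89 TPM in BMI and 0, 8.03 and 2.69 TPM in DSE. The bulbourethral gland (2.20 to 6.20 TPM), prostate gland (0.961 to 2.83 TPM) and vesicular gland (0 to 1.68 TPM) were at the lower end of the epididymis range and overlapped it. The log2 difference between epididymis and testis was -4.38 (adjusted p = 3.92e-10) and lay between -4.76 and -3.96 when any one library was left out. All 6 testis libraries lay above all 24 others, as they did for 23.8% of the genes tested. Against the mean of the other 4 glands the difference was -0.24 (adjusted p = 0.531). RNASE6 is known from myeloid cells, and macrophage markers (6 of 6 in the table) summed to 16.0 to 36.5 TPM in testis. In the epididymis their sum was 175, 94.8 and 68.5 TPM in BMI and 18.7, 117 and 72.8 TPM in DSE. The lowest of these was in the library with RNASE6 at 0, and the 3 highest were in the 3 libraries with the most RNASE6. The part of macrophages in the RNASE6 level was not tested. Without DSE epididymis replicate 1, the difference from the mean of the other glands was 0.18 (adjusted p = 0.578).

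**Figure D3:**
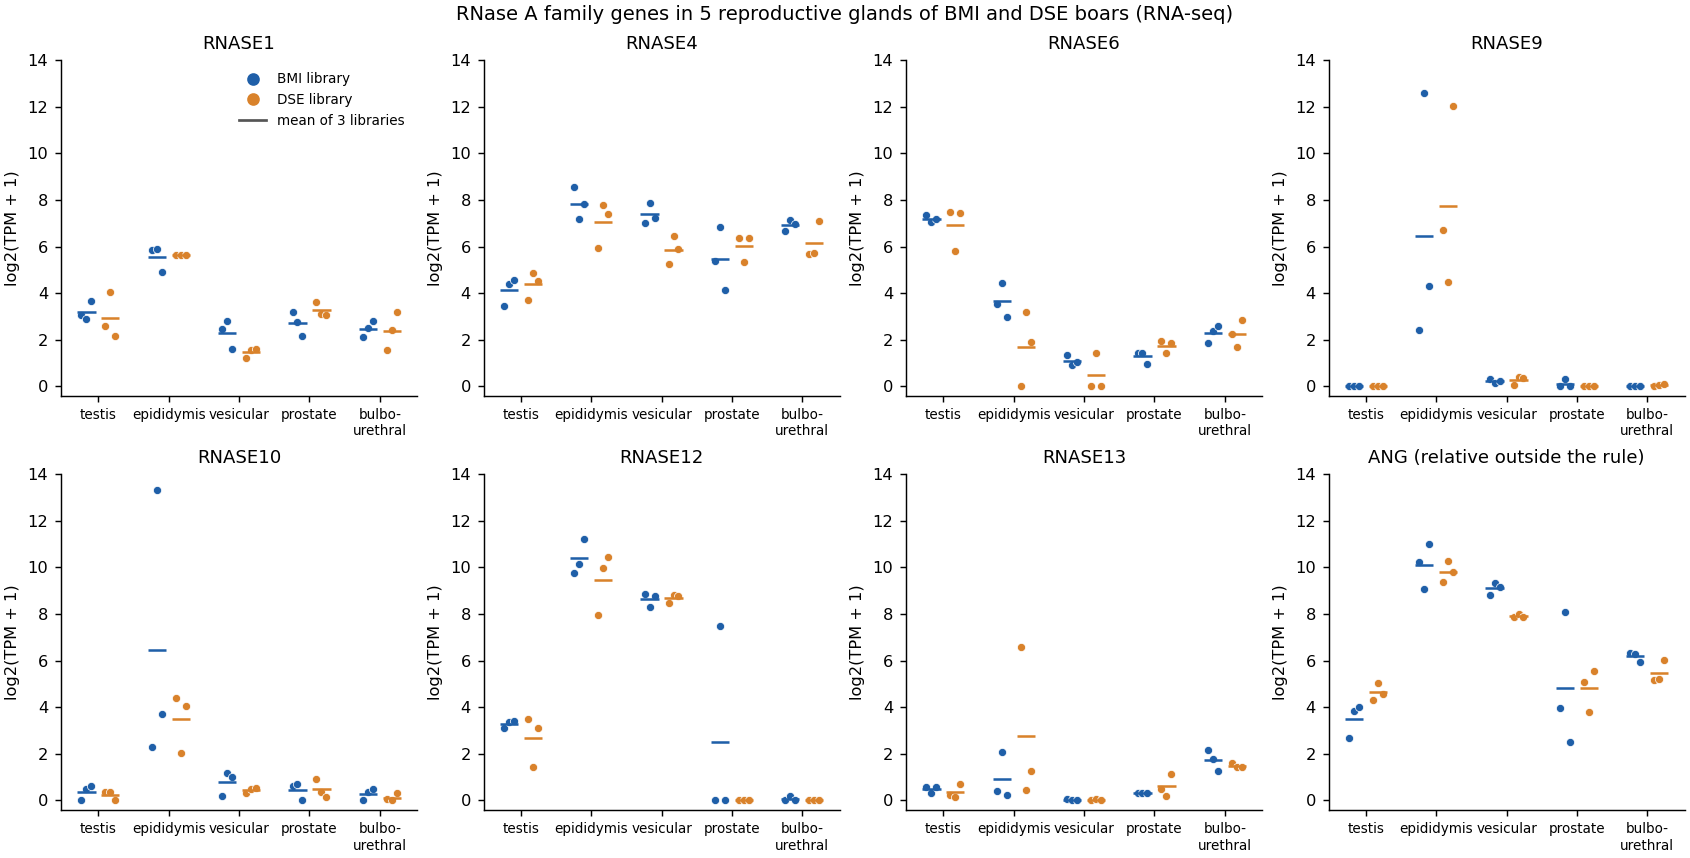
Level of each member and of ANG in the 30 RNA-seq libraries by gland, on the log2(TPM + 1) scale. Points are libraries, blue for BMI and orange for DSE, and bars are means of 3 libraries. RNASE1, RNASE9 and RNASE10 show no overlap between the epididymis and the other glands, RNASE6 is highest in testis, and 1 prostate gland library of RNASE12 lies far above the other 5.

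Each gland was also compared with the epididymis on its own. Against testis, 6 members were called higher (21.6% of all genes) and RNASE6 was called lower (29.4% of all genes). Against the prostate gland, 6 members were called higher (17.7% of all genes), with RNASE13 the exception. Against the vesicular gland, 5 were called higher (34.6% of all genes), RNASE12 and RNASE4 not being called. Against the bulbourethral gland, 4 were called higher (15% of all genes), and RNASE4, RNASE6 and RNASE13 were not called. With size factors the genes called higher and lower numbered 1934 and 1281 against the prostate gland in place of 3499 and 727, and 2308 and 1541 against the bulbourethral gland in place of 2977 and 1253. RNASE6 against the prostate gland (log2 difference 1.15, adjusted p = 0.0226) was no longer called with size factors (0.74, adjusted p = 0.145), nor with a pseudocount of 0.1 (1.01). That call also ended without BMI epididymis replicate 2 (0.95), DSE epididymis replicate 2 (0.77), BMI prostate gland replicate 3 (1.07) or DSE prostate gland replicate 2 (1.07). RNASE13 lost its calls against testis and the vesicular gland without DSE epididymis replicate 1 (0.47 and 0.86). Against testis it also lost the call without BMI epididymis replicate 2 (1.13) or without any one testis library but DSE replicate 3 (1.37 to 1.45). It lost it as well with no filter (adjusted p = 0.0632) and with size factors (adjusted p = 0.0598). Against the prostate gland RNASE13 was called with a pseudocount of 0.1 (2.01, adjusted p = 0.049) and without BMI epididymis replicate 3 (1.56), DSE epididymis replicate 3 (1.76) or DSE epididymis replicate 2 (adjusted p = 0.00499).

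The make-up of the family differed from one epididymis library to the next. RNASE12 gave 66.2, 6.42 and 89.1% of the summed TPM of the members in the BMI libraries and 42.8, 76.9 and 23.6% in the DSE libraries. RNASE10 gave 57.7% and RNASE9 34.6% in BMI replicate 2. RNASE9 gave 72.4% in DSE replicate 3. RNASE13 gave 16.6% in DSE replicate 1, its highest library. Across the 30 libraries RNASE9 and RNASE10 were the most alike pair of members (Pearson r = 0.88 on log2(TPM + 1)) and RNASE4 and RNASE6 the least (r = -0.49). These values describe 30 points that share 5 glands.

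RNASE6 had a second transcript form. Isoform PB.18041.2, with 3 exons and 988 bases, gave 100% of its TPM in testis. A separate isoform, PB.18041.1, of 3 exons and 1038 bases, was classified as a fusion of RNASE6 and its neighbour EDDM3B, an epididymal secretory protein, and is listed apart from both genes. The fusion had 17.6, 21.8 and 27.5 TPM in the BMI epididymis libraries and 13.3, 6.74 and 9.96 TPM in the DSE libraries. It was called higher in the epididymis than in each other gland, at 4.42-fold over the vesicular gland on TPM + 1. It was listed at 0 in every bulbourethral gland library and in 5 of 6 testis libraries, with 0.541 TPM in the other. In the prostate gland it was found in BMI replicate 2 alone (3.66 TPM), the library that stood apart. The log2 difference from the prostate gland was 3.60 with that library and 3.97 without it (adjusted p = 5.81e-14). The fusion shares sequence with both genes, so the split of reads between these models is an estimate as well. EDDM3B was at 602 to 6389 TPM in the epididymis, and the fusion had 3 full-length reads over all Iso-seq libraries. In the epididymis the fusion made up 45.6 to 100% of the RNASE6 and fusion TPM together (median 70.6%), and in testis at most 0.373%. The share in the vesicular gland was as high, at 36.8 to 100% (median 80.4%), with the fusion at 0.978 to 5.40 TPM. When the fusion was counted with RNASE6, an alternative chosen after seeing the data, the difference between epididymis and the mean of the other glands turned from -0.24 to 1.22 (adjusted p = 7.96e-05).

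**Figure D4:**
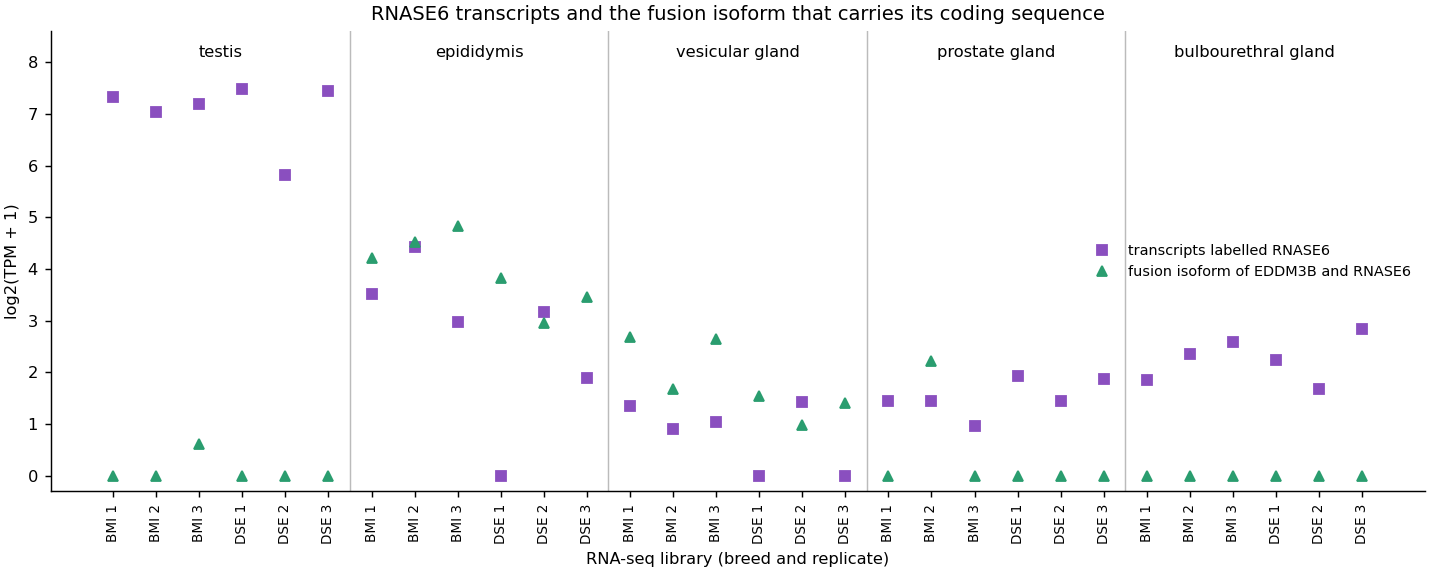
Level of the transcripts labelled RNASE6 (squares) and of the RNASE6 and EDDM3B fusion isoform (triangles) in each of the 30 RNA-seq libraries, ordered by gland, on the log2(TPM + 1) scale. The testis libraries hold RNASE6 almost alone, and all 6 epididymis libraries hold the fusion at 6.74 to 27.5 TPM.

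For RNASE9 the table and the full-length reads differed in the transcript. In the epididymis 92.4 to 98.6% of RNASE9 TPM was assigned to ENSSSCT00000101342, which starts at chr7:78340966, inside the RNASE12 model. The only RNASE9 isoform among the Iso-seq reads, PB.18019.324, starts at chr7:78362103 and held 1.38 to 7.62% of its TPM. When each transcript was fitted on its own, 9.65% of all transcripts were called higher in the epididymis. Every tested transcript of RNASE1, RNASE9, RNASE10, RNASE12 and RNASE13 was called higher, as were 2 of the 4 of RNASE4 (adjusted p = 0.182 and 0.957 for the others) and neither of RNASE6.

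The 250 bases before a start of each measured member were searched on both strands for 3 motifs named below, and 2 windows that hold a match are shown. They were chosen after their matches were seen, as the start of the member highest in testis and the only RNASE9 start seen in full-length reads. Upstream of the testis RNASE6 isoform, at chr7:78225048-78225297 on the minus strand, the capitals mark both matches to CCAAT, read on either strand.
RNASE6: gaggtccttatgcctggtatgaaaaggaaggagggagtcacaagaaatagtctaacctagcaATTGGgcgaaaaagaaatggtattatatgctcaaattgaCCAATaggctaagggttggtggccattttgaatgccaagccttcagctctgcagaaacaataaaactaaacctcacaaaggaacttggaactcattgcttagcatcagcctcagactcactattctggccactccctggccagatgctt

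Upstream of the RNASE9 isoform, at chr7:78361853-78362102 on the plus strand, the capitals mark a match on the reverse strand to AGAACA, the core sequence bound by the androgen receptor.
RNASE9: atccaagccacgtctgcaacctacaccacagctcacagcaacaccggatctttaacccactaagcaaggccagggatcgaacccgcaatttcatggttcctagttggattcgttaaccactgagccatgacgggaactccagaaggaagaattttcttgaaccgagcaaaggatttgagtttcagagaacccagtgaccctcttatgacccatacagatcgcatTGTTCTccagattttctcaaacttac

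In the RNASE6 sequence the matches lie 149 to 145 and 188 to 184 bases before the start. In the RNASE9 sequence the match lies 26 to 21 bases before the start. CCAAT was found in 32.4% of the 19326 promoters of this length and AGAACA in 10.3%, so neither is rare. TATAAA, found in 7.8%, was absent from all the windows searched. None of the 3 was found before the start that carries most RNASE9 TPM, nor before those of RNASE4 and RNASE10. RNASE1 had 1 match to AGAACA, and RNASE12 and RNASE13 had 1 match each to CCAAT.

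The Iso-seq libraries held 682 full-length reads of the members, and the isoforms kept in the table had 231413 to 458697 reads per library. Rates are given as RPM, the reads of a gene scaled to the kept reads of its library. In the epididymis the kept reads were 67.1% of all full-length reads of the BMI library and 42.7% of those of the DSE library. RPM scaled to all full-length reads, an alternative chosen after seeing the data, is therefore lower. There is no replicate, and the intervals are exact 95% Poisson intervals for counting error only. RNASE10 had 448 reads in BMI epididymis, or 977 RPM (888 to 1071), 1 read in DSE epididymis, or 4.32 RPM (0.109 to 24.1), and none elsewhere. RNASE9 had 9 reads, all in DSE epididymis, at 38.9 RPM (17.8 to 73.8). Scaled to all full-length reads, RNASE10 was at 655 RPM (596 to 719) in BMI and 1.85 RPM (0.047 to 10.3) in DSE, and RNASE9 at 16.6 RPM (7.60 to 31.5) in DSE. In BMI epididymis no RNASE9 read was counted, which allows up to 6.54 RPM. In the RNA-seq the highest RNASE10 library was also of BMI, while RNASE9 had 1 high library in each breed. Whether an Iso-seq library shares an animal with an RNA-seq library is not given in the sources used here.

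RNASE6 reads were found in testis alone, with 11 in BMI and 6 in DSE. The RNASE6 and EDDM3B fusion had 2 reads in DSE epididymis and 1 in DSE vesicular gland. RNASE4 was read in all 10 libraries, from 1 read in DSE testis to 47 in BMI vesicular gland, all from isoform PB.18042.1. A fusion of RNASE4 with ANG, PB.18042.3, had 1 read in BMI epididymis and 2 in BMI bulbourethral gland. RNASE1 had 2 reads in BMI and 3 in DSE epididymis and at most 1 elsewhere. RNASE13 had 2 reads in DSE epididymis, 1 in DSE prostate gland and 1 in BMI bulbourethral gland.

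RNASE12, at 246 to 2375 TPM in the epididymis by RNA-seq, had no full-length read in either epididymis library, which allows up to 6.54 RPM in BMI and 13 RPM in DSE. RNASE12 had 2 reads in DSE testis, 2 in BMI and 5 in DSE vesicular gland and 4 in BMI prostate gland. Isoform PB.18019.318 held 49.9 to 63.6% of RNASE12 TPM in the epididymis, and its only full-length reads were the 2 in DSE testis. The Ensembl model ENSSSCT00000002384 held 34.2 to 46.2%. The BMI prostate gland library also held 5 reads of EDDM3B, and the DSE prostate gland library none of either gene. For comparison, RNASE4 had 13 and 18 reads in the epididymis at 60.5 to 370 TPM.

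**Figure D5:**
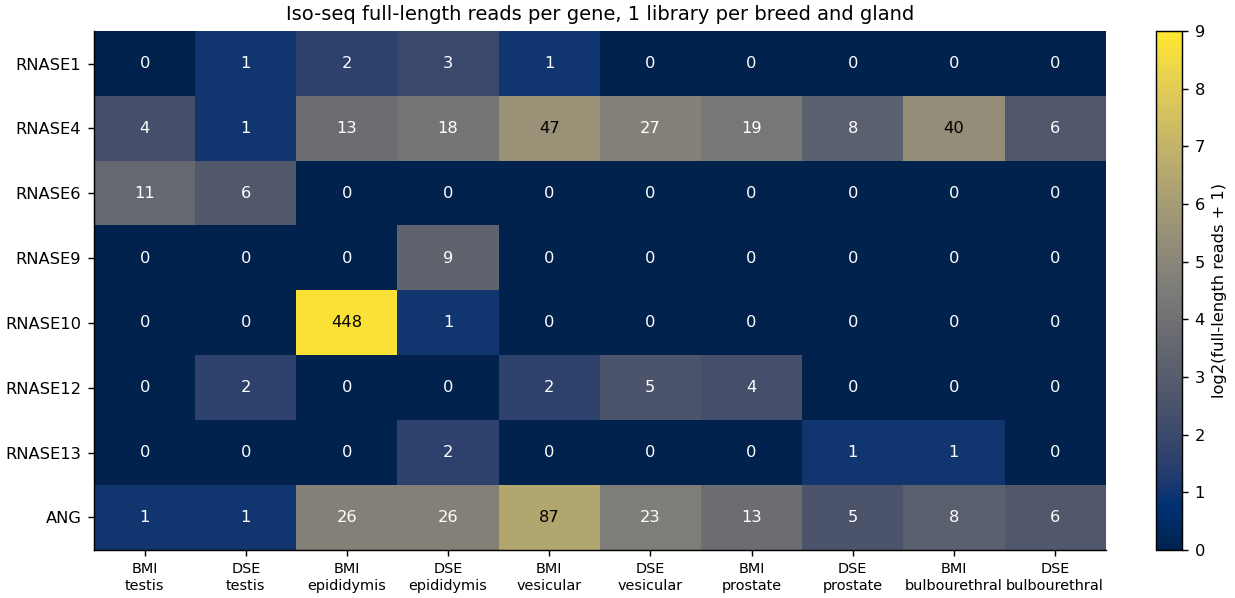
Number of full-length Iso-seq reads of each member and of ANG (rows) in the 10 libraries (columns), printed in each cell, with colour on the log2(reads + 1) scale and no correction for library size. RNASE10 has 448 reads in BMI epididymis and 1 in DSE epididymis, and RNASE12 has none in either epididymis library.

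No member was called between BMI and DSE in any of the 5 glands. Over all genes the share called was 0% in the epididymis, where 483 genes had an unadjusted p below 0.05, 0.197% in testis, 0.0152% in the vesicular gland, 0.0859% in the prostate gland and 0.0253% in the bulbourethral gland. In the epididymis the groups of 3 overlapped for every member, while 5.36% of all genes did not overlap. RNASE10 was 2.95 higher in BMI on the log2 scale, with a 95% interval from -4.74 to 10.63, and the difference for RNASE9 was -1.31, with an interval from -9.65 to 7.04. Both directions turned on single libraries. Without BMI epididymis replicate 2 the RNASE10 difference was -0.50, and without BMI replicate 1 or DSE replicate 3 the RNASE9 difference was 0.71 or 0.85. RNASE6 was 3.89-fold higher in BMI on TPM + 1, and the lower end of its interval was -0.34 on the log2 scale. The RNASE6 and EDDM3B fusion was higher in all 3 BMI than in all 3 DSE epididymis libraries, at 2.15-fold on TPM + 1, and was not called (adjusted p = 1). Intervals as wide as those of RNASE9 and RNASE10 hold large differences in both directions as well as none.

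In the vesicular gland the breeds did not overlap for RNASE4 and RNASE1, while 22.9% of all genes tested did not overlap there. RNASE4 had 129, 232 and 150 TPM in BMI and 36.6, 86.4 and 58.6 TPM in DSE, a log2 difference of 1.51 (adjusted p = 0.231). RNASE1 had 4.43, 5.89 and 2.07 TPM in BMI and 1.34, 1.99 and 2.05 TPM in DSE, so the groups were separated by a narrow gap. ANG, which shares its first exon region with RNASE4, was also higher in all 3 BMI libraries (log2 difference 1.19, adjusted p = 0.135). The median of all genes in this gland was 0.27 higher in BMI.

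A test of whether the difference between epididymis and the other glands depends on breed called none of the members and 0.157% of all genes. The largest such value was 2.80 for RNASE10 (95% interval from -0.58, and -0.65 without BMI epididymis replicate 2), and for RNASE6 it was 1.85 (adjusted p = 0.453). For RNASE13 it was -1.89 (adjusted p = 0.808) and for RNASE9 -1.31. Without DSE epididymis replicate 2, the RNASE6 value was 2.59 and passed the threshold (adjusted p = 0.0488).

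Genes in the same 296.1 kb differed in where they were high. EDDM3B, next to RNASE6, had a median of 1981 TPM in the epididymis (602 to 6389) and 160 TPM in the vesicular gland, was near 0 in testis and bulbourethral gland, and had 93.9 TPM in the prostate gland library that stood apart. ANG had 1200, 529 and 2048 TPM in BMI and 660, 1234 and 880 TPM in DSE epididymis, with a median of 356 TPM in the vesicular gland, and its log2 difference against the mean of the other glands was 4.14 ± 0.45 (SE, adjusted p = 3.86e-08). TPPP2, beside RNASE13, had a median of 934 TPM in testis and 2.32 TPM in the epididymis. NDRG2 was highest in the bulbourethral gland, with a median of 305 TPM, and METTL17 in testis, with a median of 25.3 TPM. SLC39A2 stayed at or below 4.01 TPM and the olfactory receptor OR6S1 at or below 0.0813 TPM, and no value is given for the U6 RNA gene.

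A list of 11 genes, other ribonucleases and the ribonuclease inhibitor, was set beside the family. Of the 10 tested, 2 were called higher in the epididymis than in the mean of the other glands (ANG, and ENDOU at 1.82), none was called lower and 8 were not called, with a median log2 difference of 0.44. Over all genes 15.1% were called higher and the median was 0.25, so the share of this list was near the background. RNASEK (log2 difference 0.88) and RNASEH2C (0.61), a subunit of RNase H2, were below the threshold of size. RNH1, the cytosolic inhibitor that binds RNase A type enzymes, was at 105 to 150 TPM in the epididymis and did not reach the threshold (0.19, adjusted p = 0.178). The 4 with the highest mean in the epididymis were thus ANG, RNASEK, RNASEH2C and RNH1.

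Of 24 known epididymal secretory genes, 17 were in the table and 16 were tested, of which 14 were called higher, 1 lower and 1 was not called, with a median log2 difference of 4.92, against 15.1% higher, 6.56% lower and a median of 0.25 over all genes. The highest in mean level were NPC2, a cholesterol binding protein (log2 difference 5.09), CLU, the chaperone clusterin (2.66), EDDM3B (8.84) and CST11 (6.43). TEX101, a germ cell surface protein, was the gene called lower (-1.71), and the defensin DEFB123 was not called. RNASE12 and RNASE9 lay above the median of this list and RNASE10 just below it. No gene of either list was called between the breeds in the epididymis.

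The genes most like each member over the 30 libraries were found by Pearson r on log2(TPM + 1). RNASE10 was most like LCN8 (r = 0.94), the defensin gene DEFB113 (0.93) and LCN6 (0.92). RNASE9 was most like KRT35, NTSR1 and CDH8 (all 0.97), which were low in the epididymis, with medians of 6.25, 1.19 and 0.919 TPM. RNASE12 was most like the transcription factor genes PAX2 (0.96), EMX2 (0.96) and POU3F3 (0.95), whose medians in the epididymis were 184, 50.6 and 53.5 TPM. RNASE13 had the lowest values, with BSPH1, a sperm binding protein of the epididymis (0.85), H2BU1 (0.84) and ADGRG2 (0.82).

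RNASE1 was most like CHSY1 (0.94), PLEKHG1 (0.92) and SDC3 (0.91), and RNASE4 like GLIPR2 (0.96), TP53I3 (0.91) and EFEMP1 (0.91). RNASE6 was most like KCMF1, NRDC and PSMD2 (all 0.97), with medians of 19.0, 22.7 and 87.0 TPM in the epididymis. As the 30 libraries share 5 glands, a gene that is high in one gland will be like any other that is high there.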

How the data were processed

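RNA-seq and Iso-seq of 5 glands from 2 pig breeds were used, with 3 RNA-seq libraries and 1 Iso-seq library for each breed and gland, grouped by the GEO labels. The deposited TPM values per transcript were made by the authors with Salmon 1.9.0 on an annotation merged from Ensembl models and Iso-seq isoforms (Sscrofa11.1, susScr11). The deposited Iso-seq values are raw counts of full-length reads, given by isoform for each library. For these, the authors clustered PacBio reads into isoforms, mapped them, collapsed redundant ones and classified the rest. Versions are from the submitters' processing notes. The labels name rRNA depletion and the study's methods name poly-T beads, so the RNA selection is uncertain, and the counting is not stated to use strand. The small RNA table was not used, and neither were columns of predictions and quality in the isoform table.

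TPM were summed per gene and used as log2(TPM + 1). Genes with at least 1 TPM in at least 3 of 30 libraries (19796) were fitted with limma 3.58.1 (R 4.3.3, eBayes with trend) as 10 group means. Breeds were compared on the 6 libraries of a gland. A call was a Benjamini-Hochberg adjusted p below 0.05 over all genes tested and an absolute log2 difference of at least 1. Iso-seq reads have 1 library per group and no test, with exact 95% Poisson intervals, and a count of 0 allows 3 reads. TPM carry no depth, so no interval for counting was given for them. The script was tested on simulated data with 200 changed genes.

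Coding sequences were read from RefSeq on Sscrofa11.1 and aligned as proteins with MAFFT 7.526. Promoters were the 250 bases before the start of the most abundant transcript of each gene, or before the Iso-seq isoform where said.

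The members, lists and tests were chosen with earlier results of these data known. Named besides the members and ANG were the 3 genes with a symbol most like each member, the genes with a symbol between the first and last member, up to 4 per list with the highest mean in the epididymis, the top isoform of each member and fusions that hold one. ENDOU, TEX101 and DEFB123 were named after their values were seen. One gene of the list of other ribonucleases is not reported here and was left out of its counts. Alternatives were a pseudocount of 0.1, no filter, a filter of 6 libraries, size factors, limma without trend, a replicate block, one fit of all libraries for the breeds, sums per transcript and leaving out each library. Counting the RNASE6 fusion with RNASE6, and scaling Iso-seq reads to all full-length reads that the study lists per library, were added after seeing the data.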

Additional observations from a re-analysis of the deposited data

Results flagged for a closer look

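In 7 of 25 groups of 6 libraries (a member in a gland), the highest or lowest library lay far from the others relative to the range of the group. Chance alone does this in about 1 of 20 independent groups. The 7 cannot be set against that share, since several rest on one library and only groups that reached 1 TPM were tested, which RNASE12 and RNASE13 in the prostate gland did through the outlying library alone. RNASE10 in the epididymis was highest in BMI replicate 2 at 10294 TPM, and the other 5 libraries had at most 20.1 TPM. RNASE13 in the epididymis was highest in DSE replicate 1 at 95.6 TPM, and the others had at most 3.24 TPM. RNASE1 in the epididymis was lowest in BMI replicate 3 at 29.3 TPM, against 48.7 TPM or more in the others.

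In testis, RNASE6 (55.2 TPM) and RNASE12 (1.74 TPM) were both lowest in DSE replicate 2, the library that was least like the other testis libraries. In the prostate gland, RNASE12 was at 179 TPM in BMI replicate 2, the library most like the vesicular gland, and was listed at 0 in the other 5. RNASE13 in the prostate gland was highest in DSE replicate 3 at 1.18 TPM.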

How the results depend on the processing

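RNASE1, RNASE4, RNASE9, RNASE10 and RNASE12 were called higher in the epididymis than in the mean of the other glands under every alternative run, and 5 or 6 members were called when each library was left out. None of the 28 called member differences changed sign in any alternative run, while of those not called 25 did in at least 1 and 24 did not. Among these, RNASE6 against the mean of the other glands was 1.22 with its fusion isoform added, RNASE4 against the vesicular gland was -0.26 with size factors, and RNASE13 against the bulbourethral gland ran from -0.72 to 0.81 when a library was left out. RNASE13 lost its call with no filter, with size factors and without either of 2 libraries named above. Calls over all genes against the mean of the other glands were 4290 and became 6515 with a pseudocount of 0.1. With size factors, calls against the vesicular gland fell from 7223 (6843 higher, 380 lower) to 2985 (1699 higher, 1286 lower), those against the mean of the other glands were 1684 higher and 1797 lower in place of 2991 and 1299, and ANG against the vesicular gland was no longer called (0.35). The breed difference in the epididymis contrast had 31 calls, 13 with the filter of 6 libraries and 24 to 130 when a library was left out, the highest without DSE epididymis replicate 3.

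Between breeds, a pseudocount of 0.1 gave 63 calls in testis, 4 in the epididymis, 25 in the vesicular, 55 in the prostate and 13 in the bulbourethral gland, where the reported fits gave 39, 0, 3, 17 and 5. One fit of all 30 libraries gave 947, 139, 97, 118 and 59. No filter left 1, 8 and 0 in testis, prostate and bulbourethral gland. The filter of 6 libraries left 19 in testis and 0 in the vesicular gland. Size factors gave 11 in the vesicular and 3 in the bulbourethral gland, and limma without trend gave 103 in the prostate and 0 in the bulbourethral gland. Leaving out a library gave 7 to 90 in testis (the highest without DSE testis replicate 2), 0 to 0 in the epididymis, 0 to 6 in the vesicular, 0 to 15 in the prostate and 1 to 12 in the bulbourethral gland. The cause was not tested in any of these. No member was called between breeds in the reported fits or the alternatives run for it.

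Replicate numbers were shared between breeds and glands. Between glands of a breed, where a number could mark an animal, libraries with one number deviated with r from -0.30 to 0.39 (median 0.041, over 0.1 in 21 of 60 pairs), against a median of -0.026 and 18 of 120 pairs for different numbers. Between breeds of a gland, r ran from -0.55 to 0.37 and was over 0.1 in 4 of 15 pairs. Between glands of a breed, pairs with one number were thus over 0.1 in a larger share. As r was not over 0.1 in every pair, the numbers were not taken to pair the libraries. Noise could bring a pair from one animal below 0.1, so this rule cannot show that no animals were shared. A block of breed and number gave 4294 calls against the mean of the other glands in place of 4290. A replicate block left 0 breed calls in testis and in the vesicular, prostate and bulbourethral glands. TPM hold no depth, so a value of 0 gives no upper limit for a gene, and each Iso-seq count rests on 1 library.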

Other observations

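RefSeq names 3 further genes of the family outside the naming rule that have a model in the table. LOC110261716 (ribonuclease 4-like) had 1.14 to 9.42 TPM in testis, with a median of 5.31 TPM, and at most 0.388 TPM in the epididymis. It was listed at 0 in every vesicular, prostate and bulbourethral gland library. Among the members RNASE6 was likewise highest in testis, but it reached 20.5 TPM in the epididymis and was above 0 in every prostate and bulbourethral gland library. LOC100626020 (ribonuclease 7) reached 0.922 TPM in testis and LOC102163838 (non-secretory ribonuclease-like) reached 0.334 TPM in the vesicular gland, and both were listed at 0 in every epididymis library.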
